A study of Camelus dromedarius with 10 samples.

Results

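The genes described here encode the hypoxia-inducible factors (HIFs) and the hydroxylases that set their stability, in the supraoptic nucleus (SON) of the dromedary camel. They are HIF1A, EPAS1 and HIF3A for the alpha subunits, ARNT for the beta subunit, EGLN1, EGLN2 and EGLN3 for the prolyl hydroxylases, and HIF1AN for the asparaginyl hydroxylase. They were chosen by name, as the counted gene IDs that the study's gene tables pair with these symbols. No level or response of theirs entered the rule, but earlier results of these data were known when they were chosen. Of the 8 genes, 7 were paired with 1 Ensembl ID each among the 22444 IDs counted, and all 7 had enough counts to be tested. EGLN1 and EGLN2 were paired through the name of their human orthologue only. HIF1AN was not paired with an ID in the copies of these tables used here, 1 of which holds only part of its rows, and it is not analysed here.

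The study asked how the SON, a hypothalamic nucleus of magnocellular neurones (MCNs) that make vasopressin and oxytocin, responds when camels are without water. Tissue of the rostral SON was punched from male camels 4 to 5 years old that either drank freely (control, 5 animals) or received no water for 20 days (WD, 5 animals), with food given to both groups. RNA depleted of ribosomal RNA was sequenced in 1 library per animal. Libraries are named here by group and by the number in their labels (CON2, CON3, CON4, CON5 and CON13, and WD6, WD7, WD8, WD9 and WD15).

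Each HIF is a pair of an alpha and a beta subunit, both transcription factors of the bHLH-PAS family, that binds DNA near its target genes. When oxygen is plentiful, prolyl hydroxylases use oxygen and 2-oxoglutarate to hydroxylate the alpha subunit, which is then bound by the von Hippel-Lindau protein and degraded, and when oxygen is short the alpha subunit escapes this and accumulates. The pathway is therefore governed largely at the protein level, and the values here are of RNA only.

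Libraries held between 1665098 and 8126641 read pairs counted on genes. A set of 5 gene IDs, each over 1% of a library, took between 27.7% and 76.1% of the counts, most in CON13 (76.1%) and WD6 (73.8%). Levels are counts per 1e+06 (CPM) after TMM normalization, and 1 read pair was worth 1.20 CPM in CON13 and 0.475 CPM in WD6, against 0.0864 to 0.237 CPM in the other libraries. CON13 and WD6 are therefore the least precise, and the LFC of each member is given also without them. Log2 fold changes (LFC) are of WD over control, from edgeR's quasi-likelihood test, with their 95% interval, and p was adjusted over the 14432 genes tested. Levels are compared within a gene and not between genes, since no gene lengths were used. The samples are bulk punches of many cell types, so fewer cells of a type and less RNA per cell cannot be told apart. Markers of MCNs paired with an ID (OTP, SIM1 and PDYN) had counts in every library, whereas AVP and OXT were not paired with an ID in these copies and were not analysed here.

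None of the 7 genes passed the threshold of 0.05 on the adjusted p in edgeR, at which 72 of 14432 genes (0.499%) were called. The unadjusted p was under 0.05 for 2 of them, HIF1A and HIF3A, both higher in WD, against 9.31% of all genes tested in either direction and 4.91% for higher levels in WD. That count was 1 in 8 of the 10 fits that left out 1 library (all except those without CON5 or WD8), 1 with the RNA integrity number (RIN) of the libraries as a covariate or without CON13 and WD6, and 0 with library totals only. By DESeq2's Wald test 0 of 7 passed the same threshold, against 1.27% of all genes. The control and WD libraries overlapped for each of the 7 genes, whereas the groups did not overlap for 2.62% of all genes. The LFC was above 0 for 5 of 7, and its median was 0.28, against 51.9% and 0.02 over all genes tested. The 3 alpha subunits and ARNT had an LFC above 0, EGLN2 and EGLN3 an LFC below 0, and EGLN1 an LFC of 0.09. Without CON13 and WD6 the LFC was 0.52 for HIF1A, 0.15 for EPAS1, 0.39 for HIF3A, 0.18 for ARNT, -0.050 for EGLN1, -0.16 for EGLN2 and -0.25 for EGLN3, and 0 of 7 passed the threshold in edgeR, at which 0.59% of genes were called in that fit.

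**Figure D1:**
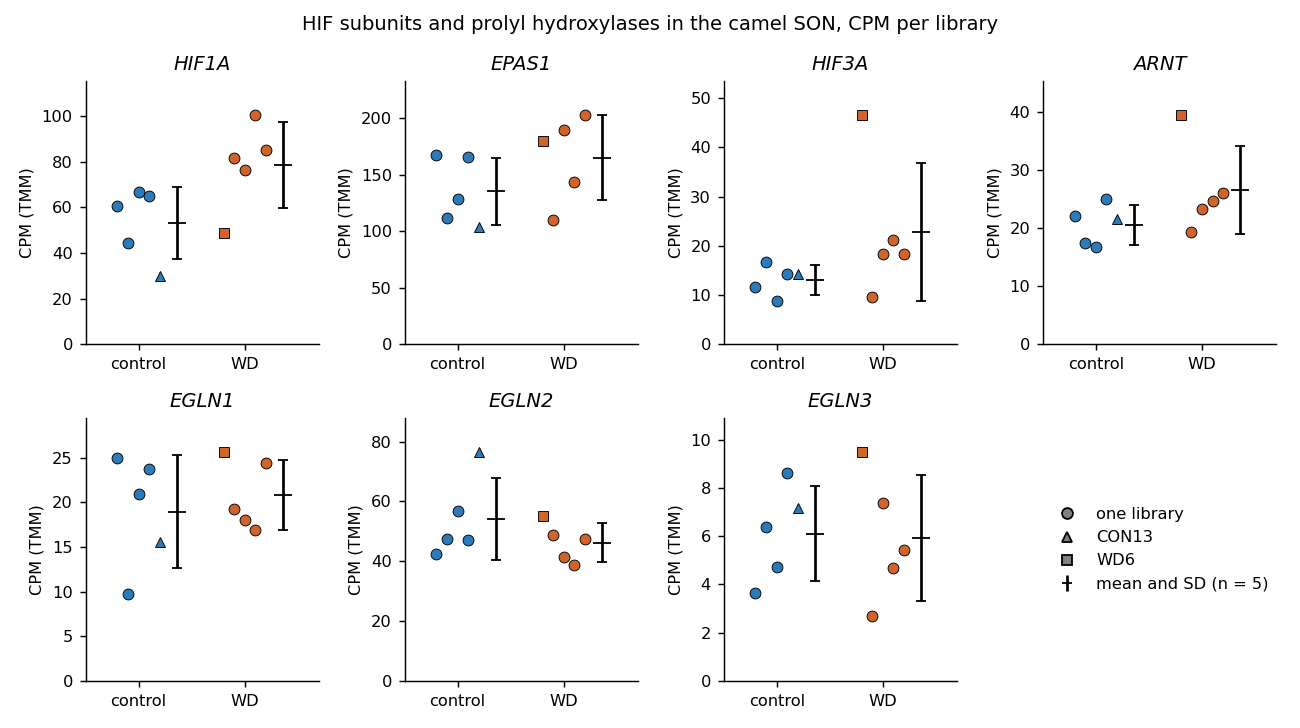
CPM (vertical axis, from 0) of the 7 genes in each control (blue) and WD (orange) library, with the mean and SD (n = 5) of each group as a black bar beside its points. Control and WD points overlap in every panel, and WD6 (square) is the highest WD library in the panels of HIF3A, ARNT, EGLN1, EGLN2 and EGLN3.

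HIF1A (ENSCDRG00005000138) encodes the alpha subunit of HIF-1, the factor best known for switching on glycolytic and angiogenic genes when oxygen is short. In control libraries CON2, CON3, CON4, CON5 and CON13 it measured 60.4, 44.5, 66.7, 65.0 and 29.9 CPM, and in WD6, WD7, WD8, WD9 and WD15 it measured 48.9, 81.5, 76.2, 100.2 and 85.2 CPM. All WD libraries except WD6 were above the highest control library, and CON13 was the lowest of all 10. The means were 53.3 ± 15.7 CPM in control and 78.4 ± 18.8 CPM in WD (SD, n = 5). The LFC was 0.53 ± 0.22 (SE), a fold of 1.44, with an LFC interval from 0.07 to 0.99. It did not pass the threshold in edgeR (unadjusted p = 0.0274, adjusted p = 0.466). The lowest libraries of the groups, CON13 and WD6, pull the LFC in opposite directions. Without CON13 it was 0.41, with an interval from -0.03 to 0.84 (edgeR, unadjusted p = 0.0640, adjusted p = 0.669), and without WD6 it was 0.64, with an interval from 0.23 to 1.06 (edgeR, unadjusted p = 0.00475, adjusted p = 0.165). Without both it was 0.52 ± 0.165 (edgeR, unadjusted p = 0.00736, adjusted p = 0.215). CON13 held 25 read pairs of HIF1A, for which counting error alone allows 19.3 to 44.1 CPM (exact Poisson 95% interval), and this overlaps the 39.9 to 59.3 CPM that it allows in WD6.

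EPAS1 (ENSCDRG00005022302) encodes HIF-2 alpha, the alpha subunit that is prominent in endothelial cells. Its levels were 168, 112, 129, 165 and 104 CPM in the control libraries and 180.3, 110.1, 189.7, 143 and 203 CPM in the WD libraries, in the same order of libraries. WD6, WD8 and WD15 were above every control library, while WD7 lay among the lowest. The LFC was 0.28 ± 0.20, with an interval from -0.15 to 0.70 (edgeR, adjusted p = 0.727). A rise to 1.62-fold and a fall to 0.904-fold are both within this interval. With RIN as a covariate the LFC was 0.10.

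HIF3A (ENSCDRG00005011604) encodes HIF-3 alpha, some forms of which restrain the other alpha subunits. Control libraries held 11.5, 16.8, 8.84, 14.2 and 14.3 CPM, and WD libraries 46.5, 9.69, 18.3, 21.3 and 18.3 CPM. All WD libraries except WD7 were above the highest control library. WD6 was 2.19 times the next WD library, at 98 read pairs, for which counting error allows 37.8 to 56.7 CPM, so the distance exceeds counting error. The LFC was 0.76 ± 0.33 with an interval from 0.07 to 1.46 (edgeR, unadjusted p = 0.0335, adjusted p = 0.484), the largest LFC of the 7 with all 10 libraries. Without WD6 it was 0.39, with an interval from -0.15 to 0.93 and an adjusted p of 0.520 in edgeR, and HIF1A was then higher at 0.64. The coefficient of variation among WD libraries was 61.1%, against 23.2% in control, and it was 29.6% without WD6.

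ARNT (ENSCDRG00005017808) encodes the beta subunit that each alpha subunit needs as its partner, and that also pairs with the dioxin receptor AHR. It measured 22.0, 17.5, 16.8, 25.03 and 21.5 CPM in control libraries and 39.4, 19.4, 23.2, 24.6 and 26.0 CPM in WD libraries. WD6 stood highest and WD15 was the only other WD library above the control range. The LFC was 0.35 ± 0.22, with an interval from -0.11 to 0.80 (edgeR, adjusted p = 0.671). Without WD6 the LFC was 0.18.

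The LFC of the prolyl hydroxylases lay between -0.20 and 0.09 and that of the alpha subunits between 0.28 and 0.76, and the difference between these groups of genes was not tested. EGLN1 (ENSCDRG00005012530) encodes PHD2, regarded as the main oxygen sensor of the pathway. Its levels were 24.97, 9.70, 20.9, 23.7 and 15.5 CPM in control and 25.6, 19.3, 17.98, 16.9 and 24.4 CPM in WD. CON3 and CON13 held the lowest values, and the WD libraries lay within or just above the control range. The LFC was 0.09 ± 0.25, with an interval from -0.43 to 0.60 (edgeR, adjusted p = 0.951), and its sign turned without CON3 (-0.11).

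EGLN2 (ENSCDRG00005013401) encodes PHD1, another hydroxylase of the alpha subunits. It measured 42.5, 47.3, 56.9, 47.3 and 76.5 CPM in control libraries and 55.0, 48.8, 41.5, 38.6 and 47.3 CPM in WD libraries. CON13 was the highest of the 10 libraries, and WD8 and WD9 were below every control library. The LFC was -0.20 ± 0.19, with an interval from -0.59 to 0.19 (edgeR, adjusted p = 0.804). Without CON13 it was -0.08, with an interval from -0.44 to 0.27. It is the member with the smallest biological coefficient of variation, 0.197.

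EGLN3 (ENSCDRG00005015624) encodes PHD3, which in many cells is itself a HIF target. It had the fewest counts of the 7 genes, 319 read pairs over the 10 libraries and 6 in CON13. Control libraries held 3.63, 6.39, 4.70, 8.64 and 7.17 CPM and WD libraries 9.49, 2.68, 7.37, 4.67 and 5.42 CPM. Both the highest and the lowest library were WD libraries (WD6 and WD7). The LFC was -0.07 ± 0.37, with an interval from -0.85 to 0.71 (edgeR, adjusted p = 0.973), which holds folds from 0.554 to 1.63. Its biological coefficient of variation, 0.361, was the largest of the 7.

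**Figure D2:**
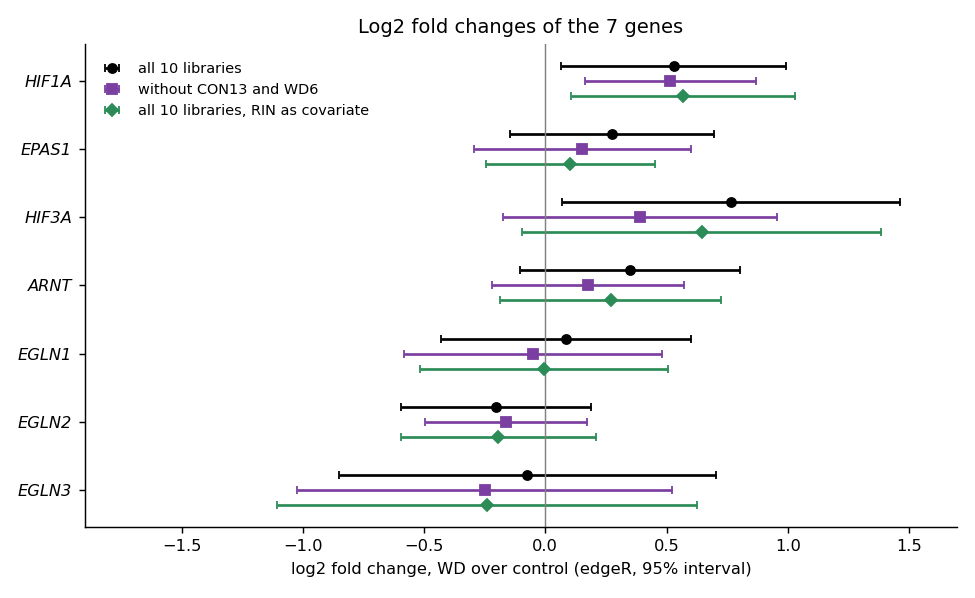
LFC of WD over control (horizontal axis, log2) of the 7 genes with 95% intervals from edgeR, with all 10 libraries (black), without CON13 and WD6 (purple) and with RIN as a covariate (green). The interval of HIF1A lies above 0 in all 3 fits, and that of HIF3A lies above 0 with all libraries and reaches below 0 in the other fits.

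Over the 10 libraries, r of log2 CPM between the 7 genes ran from -0.78 to 0.86. The closest pair was HIF3A and ARNT (Pearson r of log2 CPM 0.86, Spearman rho 0.73), and r was 0.63 without CON13 and WD6. HIF1A and EGLN2 varied in opposite directions (r = -0.78, rho = -0.55, and r = -0.74 after each group was centred on its mean), but r was -0.34 without CON13 and WD6. EPAS1 varied with EGLN1 (r = 0.66, and 0.60 without CON13 and WD6) and ARNT (r = 0.64, and 0.79). These values describe 10 libraries that share their normalization, and no test was made of them.

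**Figure D3:**
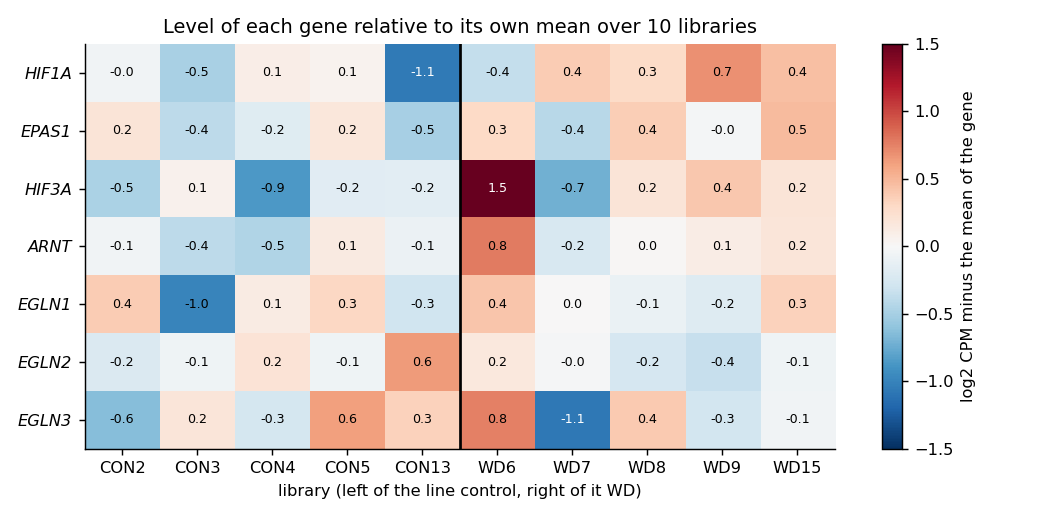
Log2 CPM of each gene minus its own mean over the 10 libraries (colour and printed value), with control libraries left of the black line and WD libraries right of it. WD6 is the highest library for HIF3A (1.5) and ARNT (0.8), and CON13 is the lowest for HIF1A (-1.1) and the highest for EGLN2 (0.6).

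The level of each gene was set against the share of counts held by the 5 dominant IDs. Pearson r passed for HIF1A and EGLN2, and Spearman rho passed for none after adjustment over the 7 relations. For HIF1A, r of log2 CPM on this share was -0.78 over 10 libraries (permutation p = 0.00890, adjusted over 7 relations 0.0380) and rho was -0.65 (permutation p = 0.0492, adjusted 0.304). For EGLN2, r was 0.76 (permutation p = 0.0108, adjusted 0.0380) and rho was 0.52 (permutation p = 0.133, adjusted 0.310). Without CON13 and WD6, the libraries farthest from the median share, r was -0.45 for HIF1A and 0.32 for EGLN2. Both kept their sign and were weaker than over 10 libraries, and neither was tested without those libraries. Within groups rho was -0.6 in control and -0.7 in WD for HIF1A, 0.1 and 0.7 for EGLN2, 0.7 and 0.7 for ARNT, 0.6 and 0.8 for EGLN3, 0.1 and 0.9 for EGLN1, 0.4 and 0.4 for HIF3A, and -0.2 and 0.6 for EPAS1, over 5 libraries each. For the other 5 genes the adjusted p of r was at least 0.184 (permutation test). The share was below that of every control library in WD7, WD8 and WD9, and its part in the LFC of HIF1A was not tested directly. That LFC was 0.46 with the 5 libraries that had the fewest counts outside the dominant IDs as a covariate (edgeR, adjusted p = 0.272), and 0.51 when libraries were scaled by their totals without the dominant IDs (edgeR, adjusted p = 0.463).

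**Figure D4:**
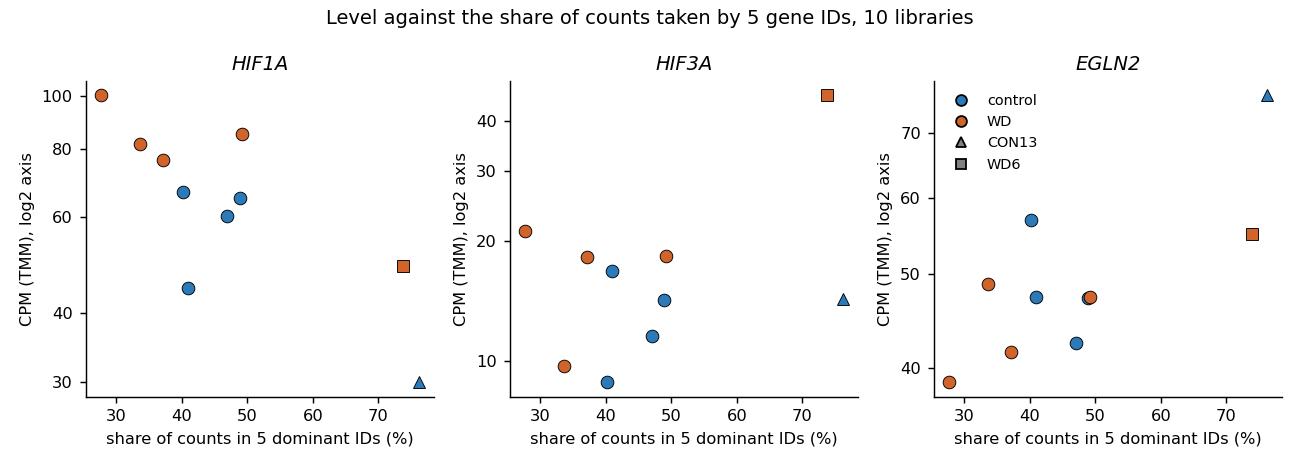
CPM on a log2 axis against the share of counts in the 5 dominant IDs (%), in control (blue) and WD (orange) libraries, for HIF1A, HIF3A and EGLN2. HIF1A is lowest and EGLN2 highest in CON13 (76.1%), and HIF3A is highest in WD6 (73.8%).

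Genes whose levels were most like each member were sought as a description over the 10 libraries, among 1488 genes with a mean of at least 10 CPM whose symbol comes from 1 of the study's gene tables. Other genes at this level were not candidates, so each likeness holds within these 1488. HIF1A was most like CLK1 (r = 0.98), PKN2 (r = 0.97) and ZBED6 (r = 0.96). EPAS1 was most like IL1R1 (r = 0.92), PLAT (r = 0.91) and MAP3K1 (r = 0.91). HIF3A was most like ZNF619 (r = 0.87), SPHK1 (r = 0.86) and ARNT (r = 0.86), and ARNT was most like PHF8 (r = 0.93), ZNF619 (r = 0.91) and ZBTB40 (r = 0.90). Among the hydroxylases, EGLN1 was most like IFNGR2 (r = 0.87), ZNF532 (r = 0.87) and CYP7B1 (r = 0.85). EGLN2 was most like STRADA (r = 0.93), SRF (r = 0.90) and FOXK1 (r = 0.87), and EGLN3 most like ZNF513 (r = 0.87), SOX13 (r = 0.84) and NRBP2 (r = 0.78). For HIF1A and EPAS1 the r of these 3 genes was at least 0.88 without CON13 and WD6 as well, and for HIF3A it was between 0.63 and 0.72. Without these libraries it was between 0.76 and 0.92 for ARNT and between 0.85 and 0.92 for EGLN1. For EGLN2 it was then between 0.69 and 0.82, and for EGLN3 between 0.71 and 0.87.

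Other genes of the pathway were taken from lists of relatives, regulators, targets and related enzymes. Among the other bHLH-PAS factors, 8 of the 11 genes paired with 1 ID were tested and 0 passed the threshold in edgeR, 0 of them with an unadjusted p under 0.05. AHRR was paired with 2 IDs and was left out. Their median LFC was -0.04. ARNT2, the neuronal relative of ARNT, had 366 ± 39.2 CPM in control and 359 ± 60.1 CPM in WD (SD, n = 5), with an LFC of -0.03 (edgeR, adjusted p = 0.977). The smallest unadjusted p were those of the clock factors ARNTL (LFC 0.41) and NPAS2 (0.25) and of NPAS3 (-0.33), with edgeR adjusted p of 0.680, 0.726 and 0.744. Without CON13 and WD6 their LFC was 0.27, 0.12 and -0.18. Among regulators and cofactors 8 genes were tested and 0 passed in edgeR, with 1 unadjusted p under 0.05 and a median LFC of -0.0027. HDAC7, a deacetylase that binds HIF-1 alpha, had an LFC of 0.44 (edgeR, adjusted p = 0.521), the chaperone HSP90AA1 0.28 (0.737) and the kinase MTOR -0.15 (0.825).

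Of 24 paired HIF target genes 20 were tested and 0 passed the threshold in edgeR, with 3 unadjusted p under 0.05 for higher and 1 for lower levels in WD, against 9.31% of all genes tested. The LFC was above 0 for 14 of 20 (70%), with a median of 0.14, against 51.9% and 0.02 over all genes. The vascular growth factor receptors FLT1 and KDR had an LFC of 0.62 and 0.64 (edgeR, adjusted p = 0.362 and 0.402). BHLHE40, a repressor of the clock, had an LFC of 0.53 (edgeR, adjusted p = 0.474). VEGFA, the growth factor bound by both receptors, measured 35.8 ± 6.44 CPM in control and 39.1 ± 6.71 CPM in WD (SD, n = 5), an LFC of 0.13 (edgeR, adjusted p = 0.893). PGF, a ligand of FLT1 named here after its values were seen, was the gene with the lower level, 5.77 ± 2.00 CPM in control and 3.21 ± 1.22 CPM in WD (SD, n = 5), an LFC of -0.87 with an interval from -1.68 to -0.05 (edgeR, unadjusted p = 0.0378, adjusted p = 0.495). ADM, EDN1, APLN and EPO were below the filter on low counts. Of the chromatin enzymes that, like the EGLN proteins, use oxygen and 2-oxoglutarate, 15 were tested and 0 passed in edgeR, 0 with an unadjusted p under 0.05. Their median LFC was 0.17, with KDM7A at 0.53, KDM6A at 0.26 and TET1 at -0.36 (edgeR, adjusted p of 0.630, 0.689 and 0.640).

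A further 9 genes of these lists were paired only through a table whose copy was cut by p, so that they entered because their p was low and add no support. They include CITED2, which competes with HIF for its coactivators (LFC 1.13, 4.98 ± 1.12 CPM in control and 10.7 ± 3.23 CPM in WD, edgeR, adjusted p = 0.138), the glycolytic enzyme ALDOC (0.59, adjusted p = 0.229) and the glucose transporter SLC2A1 (0.44, adjusted p = 0.380). TFRC, the transferrin receptor, had an LFC of 0.80 (edgeR, adjusted p = 0.195), and it was the only gene of these lists to pass the threshold without CON13 and WD6 (LFC 0.93, adjusted p = 0.0366). These genes were chosen after their values were seen.

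**Figure D5:**
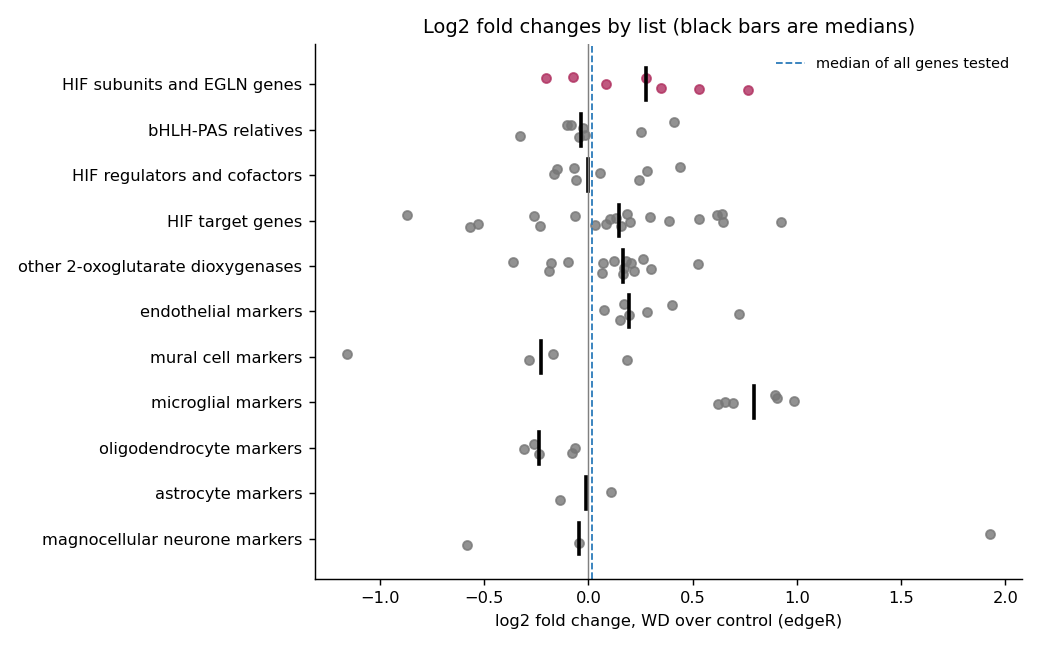
LFC of WD over control (horizontal axis, log2) of each tested gene by list, with the median of the list as a black bar and the median of all genes tested as a dashed line. Genes paired through the table cut by p are left out. The HIF subunits and EGLN genes have a median of 0.28, the HIF target genes 0.14 and the microglial markers 0.80.

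Markers of cell types in the punches were compared as the mean log2 CPM of each list, by a two-sided exact permutation test over 252 assignments of the libraries to groups, with adjustment over 6 lists (smallest p possible 0.00794). Markers paired only through the table cut by p were left out, 3 microglial (CX3CR1 with an LFC of 0.94, P2RY12 with 0.70 and AIF1 with 0.86) and 2 astrocyte markers (ALDH1L1 with 0.55 and GJA1 with 0.50), since they entered by their low p. On the mean log2 CPM no list passed. Endothelial markers, of the cells where EPAS1 is prominent, differed by 0.09 over 8 of the 12 genes listed (exact p = 0.603, adjusted 0.865) and by 0.237 as the log2 of the summed CPM (exact permutation test, adjusted p = 0.524). The LFC was above 0 for all 7 of them that were tested, with a median of 0.19, against 51.9% and 0.02 over all genes tested. The smallest p were those of PTPRB (LFC 0.40), SOX17 (0.72) and ADGRF5 (0.28), with edgeR adjusted p of at least 0.599. The 8th marker, SOX7, was below the filter on low counts, with means of 2.60 CPM in control and 1.36 CPM in WD. The summed level of the 8 markers was 277 to 475 CPM in control and 262 to 547 CPM in WD. Mural markers, of the cells around small vessels, differed by -0.45 over 4 of 7 genes (exact p = 0.0317, adjusted 0.111) and summed to 58.6 to 76.5 CPM and 43.7 to 66.7 CPM. Of the 4, HEYL had an LFC of -1.16, FOXS1 -0.29, TBX18 -0.17 and PDGFRB 0.18, and the difference was -0.199 as the log2 of the summed CPM (exact permutation test, adjusted p = 0.302). Microglial markers differed by 0.67 over 6 of 9 genes (exact p = 0.0556, adjusted 0.111) and summed to 195 to 327 CPM and 241 to 732 CPM, and the difference was 0.383 without WD15. The LFC was above 0 for all 6, with a median of 0.80, and 4 had an unadjusted p under 0.05 in edgeR. The smallest p were those of PTPRC (LFC 0.90), IRF8 (0.98) and ITGAM (0.90), with edgeR adjusted p of at least 0.229. MCN markers differed by 0.44 over 3 of 6 genes (exact p = 0.0556, adjusted 0.111) and summed to 189 to 336 CPM and 525 to 881 CPM. As the log2 of the summed CPM they differed by 1.39, which passed (exact permutation test, adjusted p = 0.0476). Of the 3, only PDYN was higher in WD, with means of 162 CPM in control and 618 CPM in WD (LFC 1.93, edgeR, adjusted p = 3.02e-04). SIM1 (71.0 and 68.8 CPM) had an LFC of -0.04, the median of the list, and OTP (39.5 and 25.7 CPM) of -0.58. The summed difference is therefore that of PDYN and not a rise of the list. Oligodendrocyte markers (5 of 8) and astrocyte markers (2 of 9) differed by -0.09 each (exact permutation test, adjusted p = 0.865), with sums of 89.0 to 247 CPM and 25.1 to 42.7 CPM in control and 84.0 to 196 CPM and 12.8 to 46.6 CPM in WD. As the log2 of the summed CPM they differed by -0.152 and -0.0726. The LFC was above 0 for 0 of the 5 oligodendrocyte markers, with a median of -0.24. The smallest p among these were those of OLIG1 (LFC -0.31), MYRF (-0.26) and NKX6-2 (-0.24), with edgeR adjusted p of at least 0.798. Of the 2 astrocyte markers EDNRB had an LFC of 0.11 and NR2E1 of -0.13 (edgeR, adjusted p of at least 0.928). Every marker that entered these means had counts in all 10 libraries. The part of these markers in the levels of the HIF and EGLN genes was not tested.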

How the data were processed

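The authors merged and trimmed the reads, aligned them to Camdro2 with STAR and counted read pairs per gene with FeatureCounts. The deposited counts per gene are whole numbers without normalization, and they were the only values used here. The annotation release, the strand setting and the treatment of shared read pairs are not given in the sources used here. The counts of 0 other IDs were within 1% of those of a member. Groups came from the labels.

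Members and lists were chosen with earlier results of these data known. The main test was edgeR's quasi-likelihood F test (edgeR 4.0.16, R 4.3.3; TMM, robust dispersions, low counts removed by filterByExpr), and p was adjusted by Benjamini-Hochberg over 14432 genes. Its standard error is the LFC divided by the square root of F. Alternatives were DESeq2 1.42.0 with default settings, other normalizations and filters, depth group or RIN (from the study's list of libraries) as a covariate, and each library left out. DESeq2's independent filter was first run at a level of 0.05 (210 calls, no adjusted p for EGLN3) and then at its default of 0.1, as planned (209 calls). When the default was restored, the number of calls in an earlier account of these data was known. The former stands as an added alternative. Correlations used 100000 permutations. Summaries used Python 3.11.15 (pandas 2.3.3, scipy 1.17.1, numpy 2.4.6) and plots used matplotlib 3.10.9. The genes named are the 8 members, the 3 most like each member, and of each list those past the threshold and up to 3 with the smallest p. That choice by p left out genes paired only through the table cut by p. Other genes are given as chosen later or as examples. Counting intervals cover counting error only. The main edgeR fit was tested on simulated data, and the alternative fits were not. The normalized table was not used.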

Additional observations from a re-analysis of the deposited data

Results flagged for a closer look

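A check for a single library far from the other 4 of its group covered 84 groups, which include those of the 7 genes and of the genes named from the lists. No HIF or EGLN gene stood out, and 5 values of other genes did. Chance alone flags about 1 in 20 groups.

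NPAS3, a bHLH-PAS relative, measured 4.75 CPM in WD6 against 10.0 to 11.8 CPM in the other WD libraries. The endothelial marker SOX17 measured 9.02 CPM in WD6 against 2.29 to 3.70 CPM. The microglial markers ITGAM and PTPRC were highest in WD15, at 203.8 CPM against 47.2 to 90.2 CPM and at 75.4 CPM against 30.1 to 42.2 CPM. The oligodendrocyte marker OLIG1 measured 22.2 CPM in CON2 against 9.52 to 13.01 CPM in the other control libraries.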

How the results depend on the processing

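With all 10 libraries or with any 1 left out, 0 of the 7 genes passed the threshold, while the calls over all genes were 72 in edgeR, 209 in DESeq2 (210 with its filter set for 0.05), 10 with library totals only, 224 with depth group as a covariate and 40 to 102 with 1 library left out. HIF1A, EPAS1, HIF3A and ARNT kept an LFC above 0 and EGLN2 an LFC below 0 in every fit run. With 1 library left out the LFC ranged from 0.41 to 0.64 for HIF1A, 0.19 to 0.38 for EPAS1, 0.39 (without WD6) to 0.96 (without WD7) for HIF3A, 0.18 (without WD6) to 0.45 for ARNT, -0.11 to 0.19 for EGLN1, -0.30 to -0.08 for EGLN2 and -0.26 to 0.14 for EGLN3.

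The LFC of EGLN1 turned to -0.00404 with RIN as a covariate and to -0.050 without CON13 and WD6, an alternative chosen after seeing the data, as was the other filter level of DESeq2. That of EGLN3 turned to 0.00434 with library totals only, a scaling that moved the median of all genes by 0.14, and relative to that median it was -0.16 (HIF1A 0.56, HIF3A 0.58). The causes were not tested. With at least 10 counts in every library EGLN3 was not among the genes tested. With 1 library left out the marker difference ranged from -0.0149 to 0.180 for endothelial, -0.559 (without WD8, adjusted p = 0.0476, exact permutation test) to -0.357 for mural, 0.383 (without WD15) to 0.823 for microglial, 0.302 to 0.525 for MCN, -0.214 to 0.123 for oligodendrocyte and -0.233 to 0.198 for astrocyte markers. As the log2 of their summed CPM, MCN markers differed by 1.39 (adjusted p = 0.0476, exact permutation test) and mural markers by -0.199. Of the MCN markers only PDYN was higher in WD. No paired analysis was possible because the groups share no replicate numbers in the labels. EGLN3 had the fewest counts, 6 to 59 per library.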
